A study of Homo sapiens with 4 samples.

Results

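These are stretches of mRNA that the authors' table of m6A windows assigned to 3' untranslated regions (3' UTRs) and in which input reads outnumbered reads of the m6A immunoprecipitate (IP) by at least 4 to 1. They were chosen by their measured reads and by the table's region class, so their low IP-to-input ratios describe the choice and are not a finding. There were 1361 such IP-poor windows among 27678 listed windows and among 3818 windows of the 3' UTR class. Of these, 890 lay in 569 genes transcribed from the plus strand and 471 in 330 genes transcribed from the minus strand. The strands are given apart, because the class column reads different ends of the window on each; only counts over lists of genes are pooled, since the lists are short, with the split by strand beside them.

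The libraries were made from poly(A) RNA of a human breast cancer line. The growth protocol names it MDA-MB-231Br, which was selected for growth in brain from the triple-negative line MDA-MB-231. The cell line label names MDA-MB-231 and the extraction protocol mentions embryos, and which of these holds is unclear from the labels. There were 2 IP libraries, made with an antibody against m6A, and 2 input libraries, with no treatment and no second genotype. The table held 1 IP and 1 input read count per window, so no window had a replicate value and no test across libraries could be made. Intervals are exact 95% intervals that cover counting error only. In such bulk RNA, fewer cells with a modified transcript and a lower modified share per cell cannot be told apart. Of the mesenchymal markers of the line, VIM, CD44, AXL and CAV1 had listed windows and FN1, LGALS1 and ANXA2 had none, and 0 of 13 neural, leukocyte, erythroid and liver or yolk sac markers had one. Of 8 luminal or receptor markers 2 had one, GATA3 and EPCAM, each with 0 input reads. A gene with no listed window may still be expressed.

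N6-methyladenosine (m6A) is placed on mRNA by the METTL3 and METTL14 methyltransferase with its adaptors, mostly at adenosines in the DRACH context (D is any base but C, R a purine and H any base but G) and most often around the core GGAC. ALKBH5 and FTO remove it, and YTH proteins, among them YTHDF3, bind it and change the translation and decay of the transcript. Maps of mRNA in many cells place most m6A near the stop codon and in the 3' UTR, the region in which the windows described here carried few IP reads.

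The runs below show the core motif GGAC, in capitals and with its T where the longer form GGACT is present, in IP-poor 3' UTR windows of highly expressed genes. Each run is written 5′ to 3′ on the transcribed strand as DNA letters, from the GENCODE release 29 transcripts (GRCh38), and is the occurrence nearest the middle of the window, with GGACT taken before GGAC. AXL is a receptor tyrosine kinase of mesenchymal cells, MSN encodes moesin, which links the membrane to actin, RAN is the nuclear transport GTPase, and APLP2 is a relative of the amyloid precursor protein.
AXL: agtacagagtgtGGACTctggtgcctccag
MSN: ccagccccatcaGGACTcttgtgaaaagag
APLP2: ctcctcctctctGGACTttctccaaaggca
RAN: aacttcattgtttGGACctgcatatttagc
These lie at chr19:41261700-41261729, chrX:65740805-65740834, chr11:130144286-130144315 and chr12:130876104-130876133, all on the plus strand within the 3' UTR part of the last exon. The AXL window had 17 IP and 1546 input reads, the MSN window 32 IP and 1586 input reads, the APLP2 window 5 IP and 1501 input reads and the RAN window 25 IP and 1845 input reads. All 4 windows thus held the core motif at ratios between 0.00333 and 0.0202.

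Some windows without the core motif held the hexamer AATAAA, which is shown for them instead, and others, such as that of EMP1, held neither. The middle of the PPIA window lay 1563 nt before the annotated transcript end. Use of these hexamers as poly(A) signals was not tested. PPIA encodes cyclophilin A, MMP1 the interstitial collagenase and RPL32 a protein of the large ribosomal subunit; AATAAA, in capitals, is the DNA form of the canonical poly(A) signal.
PPIA: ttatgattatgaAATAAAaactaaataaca
MMP1: ttttatgtttggAATAAAgtcaaccttgtt
RPL32: gttttctgtttaAATAAAtgtaaaaactgc
The PPIA run is at chr7:44801598-44801627 on the plus strand, and the MMP1 and RPL32 runs are at chr11:102789931-102789960 and chr3:12836049-12836078 on the minus strand. The PPIA window had 40 IP and 2361 input reads (ratio 0.0169, 0.0121 to 0.0231), the MMP1 window 1231 IP and 5597 input reads (0.22, 0.207 to 0.234) and the RPL32 window 16 IP and 1526 input reads (0.0105, 0.00598 to 0.0171).

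MARVELD1, a membrane protein with a MARVEL domain, and FEM1A, a substrate receptor of ubiquitin ligases, each held an IP-poor and an IP-rich window (at least 4 IP reads per input read) in the same 3' UTR, and the core motif stood in all 4.
MARVELD1 IP-poor: tagcagagggaggGGACccaccccagtgag
MARVELD1 IP-rich: gagactaagacgtGGACaggggccgcgcag
FEM1A IP-poor: ccagccgaggtttGGACaaagtctcaggtt
FEM1A IP-rich: cggggagcttcgGGACTggaaaaaacagag
On the plus strand these are chr10:97715726-97715755, chr10:97714739-97714768, chr19:4795095-4795124 and chr19:4800894-4800923. In MARVELD1 the IP-poor window, centred 1235 nt after the stop codon, had 7 IP and 62 input reads, and the IP-rich window, centred 415 nt after it, had 124 IP and 6 input reads. In FEM1A the order along the RNA was the other way round, with 5 IP and 41 input reads in the IP-poor window 1136 nt after the stop codon and 65 IP and 4 input reads in the IP-rich window 6981 nt after it.

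The share of IP-poor windows differed between the strands. They were 41.8% of plus-strand windows of the 3' UTR class, against 29.9% of plus-strand windows of all classes. Among minus-strand windows they were 27.9% of the class, against 31.0% of windows of all classes. Of all listed windows, 30.3% were IP-poor. Every listed window had at least 5 IP reads, so a window needed at least 20 input reads to be IP-poor. Among windows of the class with that many input reads, 49.8% were IP-poor on the plus strand and 36.3% on the minus strand. IP-rich windows made up 9.73% of the class on the plus strand, 16.8% on the minus strand and 17.2% of the whole table.

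On the plus strand the median IP-poor window had 6 IP reads, with quartiles of 5 and 10, and 83 input reads, with quartiles of 45 and 169. The minus-strand medians were 8 IP reads, with quartiles of 6 and 19, and 120 input reads, with quartiles of 60 and 228. IP reads stood at 5, the lowest value in the table, in 313 plus-strand windows (35.2%) and in 84 minus-strand windows (17.8%). For those windows the ratio mostly follows the input reads. The median IP-to-input ratio was 0.105 on the plus strand and 0.107 on the minus strand. It was at most 0.1 in 426 and at most 0.01 in 17 plus-strand windows, and at most 0.1 in 216 and at most 0.01 in 13 minus-strand windows. The upper bound of the ratio stayed at or below 0.25 in 506 plus-strand and 295 minus-strand windows. The median window spanned 230 nt of spliced RNA on the plus strand and 200 nt on the minus strand.

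**Figure D1:**
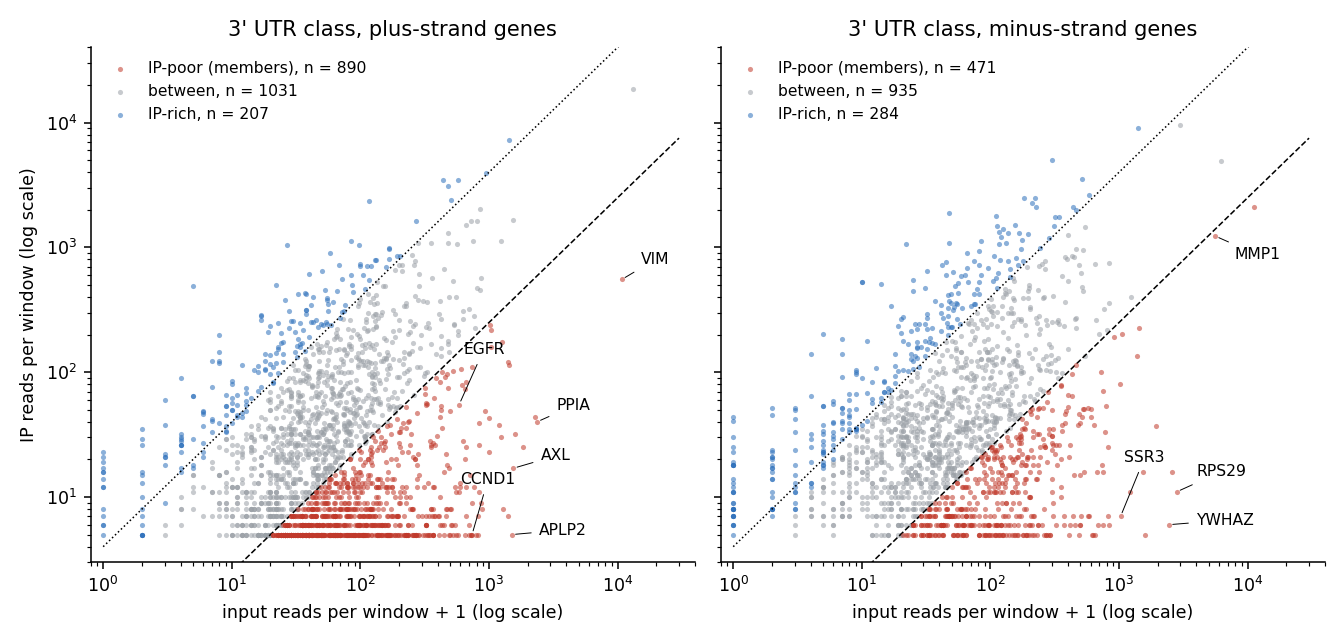
IP reads against input reads plus 1 (both on log scales) for every window of the 3' UTR class, in plus-strand genes (left) and minus-strand genes (right); each point is a window. The dashed line marks 4 input reads per IP read and the dotted line 4 IP reads per input read; the 890 and 471 IP-poor windows lie on or under the dashed line and many sit on the floor of 5 IP reads.

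The threshold cut through a continuous range. Just inside it on the plus strand, AP5S1 had 14 IP and 56 input reads and NEK6 had 12 IP and 48 input reads, and just outside it SOAT1 had 40 IP and 159 input reads and VAPB had 27 IP and 107 input reads. In minus-strand genes SORT1 with 25 IP and 100 input reads and UBA3 with 21 IP and 84 input reads were just inside. WARS with 136 IP and 543 input reads and DCAF16 with 36 IP and 140 input reads were just outside.

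In the authors' deposited table most of these windows were called significant although they held fewer IP than input reads. The authors' false discovery rate (FDR) was at most 0.05 for 813 plus-strand windows (91.3%) and 447 minus-strand windows (94.9%), against 92.8% of all plus-strand and 93.1% of all minus-strand windows of the table. These shares are near the background and say nothing particular of IP-poor windows. The deposited FDR was below its own p-value in 126 plus-strand (14.2%) and 117 minus-strand (24.8%) IP-poor windows, which an adjusted p-value cannot be, so its meaning is unclear. The same held for 18.0% of all plus-strand and 23.2% of all minus-strand windows, so it is not particular to IP-poor windows. The deposited FDR was at most 1e-10 for 341 plus-strand (38.3%) and 186 minus-strand (39.5%) IP-poor windows. The share of all windows at that limit was not computed, so these counts have no background. The direction that these p-values test is not given in the sources used here.

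Among the windows with most input reads were those of genes of the cytoskeleton, the ribosome and the extracellular matrix. On the plus strand VIM, the mesenchymal intermediate filament vimentin, had 553 IP and 10774 input reads (ratio 0.0513, 0.047 to 0.0559) in a window that joins exons 5 and 6 of a nonsense-mediated decay isoform and holds the stop codon of the main protein-coding transcript. Next came PPIA, then the ribosomal protein gene RPS21 with 44 IP and 2278 input reads, RAN, MSN and AXL. EMP1, an epithelial membrane protein, had 114 IP and 1438 input reads. Among windows with the lowest upper bounds were those of CD44, the hyaluronan receptor, with 8 IP and 1287 input reads (0.00622, 0.00268 to 0.0123), and of CCND1, cyclin D1, with 5 IP and 737 input reads (0.00678, 0.0022 to 0.0159). SET, a histone chaperone, had 5 IP and 792 input reads and RBM3, a cold-inducible RNA-binding protein, 5 IP and 718 input reads. These values span a range of ratios from 0.00333 in APLP2 to 0.0793 in EMP1, all far under the threshold of 0.25.

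In minus-strand genes, MMP1 and the ribosomal protein genes RPS29 and RPL37 were among the windows with most input reads. RPS29 had 11 IP and 2804 input reads (0.00392, 0.00196 to 0.00703) and RPL37 had 16 IP and 2570 input reads (0.00623, 0.00355 to 0.0101). YWHAZ, a 14-3-3 signalling adaptor, had the lowest ratio of the strand's named windows, with 6 IP and 2439 input reads (0.00246, 0.000902 to 0.00536). SSR3, a subunit of the translocon-associated complex, had 7 IP and 1027 input reads, ANKRD1, a mechanically induced cofactor, 11 IP and 1208 input reads, and NUCKS1, a chromatin-bound phosphoprotein, 6 IP and 753 input reads. H2AFV, a variant histone H2A, had 37 IP and 1931 input reads, and ERAP1, the aminopeptidase that trims peptides for antigen presentation, had 225 IP and 1432 input reads. GOLGA6L10 had 2099 IP and 11279 input reads in a window that could not be placed on a transcript, and it belongs to a multicopy family, so its reads are uncertain. On the main protein-coding transcript, the midpoints of the RPL37, RPL32, H2AFV, ERAP1 and SSR3 windows lay in coding sequence and those of the RPS29 and RPS21 windows outside the exons. Ribosomal protein genes have many processed pseudogenes, among which the authors' counting could have split reads.

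The class label was checked against the annotation. In 99.2% of 27020 windows the class equalled the region of the window's leftmost genomic base on the transcript it was cut from, and that transcript was the gene's longest in 96.6% of placed windows. For a minus-strand gene the leftmost base is the 3' end of the window, so a window of the 3' UTR class can begin in coding sequence and hold the stop codon. The transcript was annotated as a nonsense-mediated decay isoform, whose early stop codon turns downstream coding exons into 3' UTR, for 119 of 879 placed plus-strand windows (13.5%) and 66 of 462 minus-strand windows (14.3%). Other windows of the class had shares of 14.9% on the plus strand and 16% on the minus strand.

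Measured instead on the gene's protein-coding transcript with the longest coding sequence, most but not all IP-poor windows lay in the 3' UTR. On the plus strand the midpoint was in the 3' UTR in 681 of 874 windows (77.9%, 75% to 80.6%), in coding sequence in 96 (11%) and outside the exons of that transcript in 97 (11.1%). For other windows of the class on that strand the 3' UTR share was 70.2% (67.5% to 72.7%). For minus-strand genes the midpoint was in the 3' UTR in 265 of 460 windows (57.6%, 52.9% to 62.2%), in coding sequence in 139 (30.2%) and outside the exons in 56 (12.2%), against a 3' UTR share of 53.7% (50.8% to 56.6%) for other windows. The stop codon stood inside 2.63% (1.68% to 3.92%) of plus-strand and 29.3% (25.2% to 33.7%) of minus-strand IP-poor windows. In other windows of the class it stood inside 3.6% (2.62% to 4.82%) on the plus strand and 37.1% (34.3% to 39.9%) on the minus strand.

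Windows cut on nonsense-mediated decay isoforms held 88 of the 96 plus-strand midpoints in coding sequence. These were 76.5% of 115 such windows, and in minus-strand genes 47 of 64 (73.4%) had their midpoint in the coding sequence of the main protein-coding transcript. For other windows of the class cut on such isoforms the shares were 70.4% on the plus strand and 69.7% on the minus strand. Among IP-poor windows cut on protein-coding transcripts, the midpoint lay in the 3' UTR in 659 of 754 (87.4%) on the plus strand and in 255 of 390 (65.4%) on the minus strand. All 10 windows of ATP2A2, the endoplasmic reticulum calcium pump and the gene with most IP-poor windows of the class, were cut on a nonsense-mediated decay isoform. They had between 5 and 120 IP reads and between 432 and 1411 input reads, and each midpoint lay in coding sequence. The 5 windows of POLG, the mitochondrial DNA polymerase, and the 5 of LAS1L, a ribosome biogenesis factor, also had their midpoints in coding sequence, as had 5 of the 6 of PFKM, the muscle phosphofructokinase. The 6 windows of MPRIP, a myosin phosphatase partner, lay in the last exon of its longest transcript and outside the exons of the main one, with 5 or 6 IP and between 104 and 253 input reads. In SAMD4A, an RNA-binding translational repressor, all 6 lay in the 3' UTR proper, between 163 and 3388 nt after the stop codon, with between 5 and 30 IP and between 79 and 157 input reads.

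**Figure D2:**
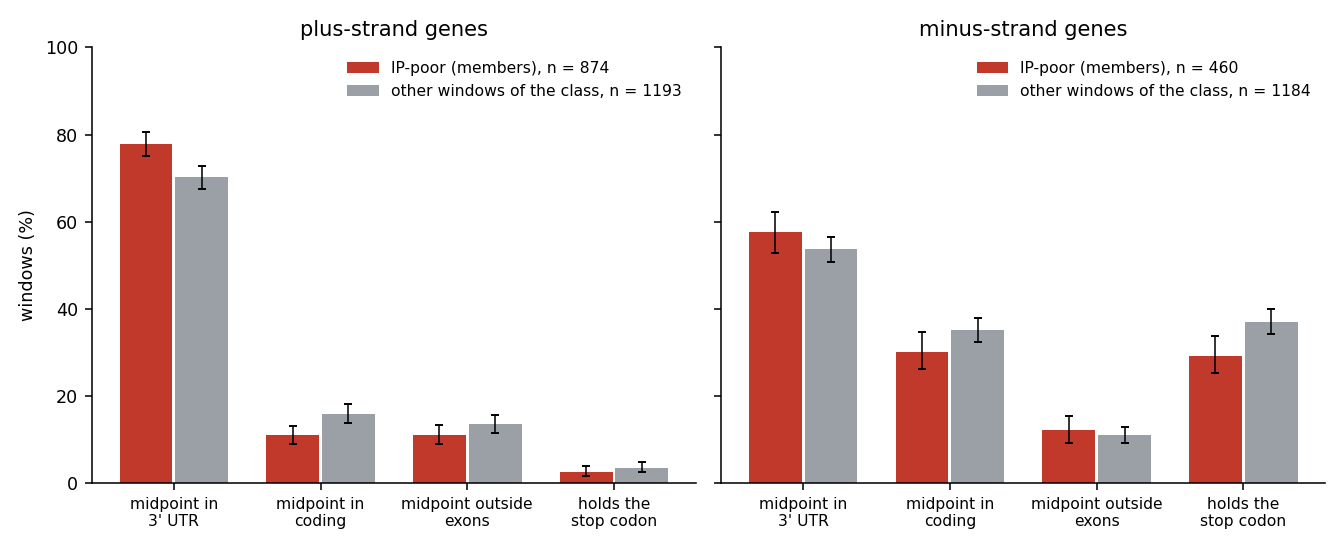
Share of windows (%, with exact 95% intervals) by place on the gene's protein-coding transcript, for IP-poor windows of the 3' UTR class (red) and other windows of the class (grey), in plus-strand (left) and minus-strand genes (right). A midpoint in the 3' UTR was found for 77.9% of IP-poor windows on the plus strand and 57.6% on the minus strand, and minus-strand windows of both kinds often held the stop codon.

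On the main protein-coding transcript, the median IP-poor window lay farther from the stop codon than the median IP-rich window. With both midpoints in the 3' UTR, the median distance was 1070 nt (interquartile range 526 to 1937) for 681 IP-poor windows and 723.5 nt (261.8 to 1799) for 132 IP-rich windows on the plus strand. In minus-strand genes it was 754 nt (202 to 1789) for 265 IP-poor windows and 417 nt (127 to 1122) for 139 IP-rich windows. The ranges overlapped widely. Median 3' UTR lengths behind them were 2802 nt for IP-poor and 3014 nt for IP-rich windows on the plus strand, and 3175 nt and 1970 nt in that order on the minus strand. Measured along the 3' UTR's own length, 55.5% (51.7% to 59.3%) of IP-poor and 65.9% (57.2% to 73.9%) of IP-rich midpoints on the plus strand lay nearer the stop codon than the middle. For minus-strand genes the order was the other way round, at 68.7% (62.7% to 74.2%) of IP-poor and 63.3% (54.7% to 71.3%) of IP-rich midpoints, so there the larger distance in nt went with longer 3' UTRs. These intervals overlapped on both strands. The first 200 nt after the stop codon held the midpoint of 5.61% (4.18% to 7.34%) of IP-poor windows and 10.6% (8.95% to 12.5%) of other windows of the class on the plus strand. In minus-strand genes the shares were 14.3% (11.3% to 17.9%) and 17.5% (15.4% to 19.8%). These shares are of all windows placed on a coding transcript. At the other end, shares were taken of midpoints in the 3' UTR alone, so the ends cannot be compared directly. The last 200 nt of the transcript held 5.14% of IP-poor and 8.6% of other such midpoints on the plus strand. On the minus strand it held 4.91% of IP-poor and 10.7% of other such midpoints.

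IP-poor windows held the core motif less densely than IP-rich windows of the same class, and more densely than the unlisted rest of the same 3' UTRs. GGAC was searched on the transcribed strand, GGACT occurrences are counted within it, and windows lying wholly in the 3' UTR of the protein-coding transcript were used. GGAC occurred 0.349 times per 100 nt (0.324 to 0.376) in 667 IP-poor windows and 0.53 times (0.451 to 0.617) in 128 IP-rich windows on the plus strand. On the minus strand it occurred 0.373 times per 100 nt (0.323 to 0.428) in 208 IP-poor windows and 0.664 times (0.569 to 0.771) in 103 IP-rich windows. Windows between these thresholds had 0.446 (0.416 to 0.477) in plus-strand genes and 0.402 (0.364 to 0.444) in minus-strand genes, where their interval overlapped that of IP-poor windows. Stretches with no listed window, cut into pieces of 100 nt, were taken only from 3' UTRs that hold the midpoint of an IP-poor window. They had 0.259 (0.249 to 0.269) on the plus strand and 0.268 (0.255 to 0.283) on the minus strand. The intervals treat occurrences as independent, and windows that overlap or share a gene count more than once.

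Counted as windows, GGAC stood in the central 100 nt of 29.8% (26.4% to 33.5%) of IP-poor and 41.7% (33.0% to 50.8%) of IP-rich plus-strand windows wholly in the 3' UTR. On the minus strand it stood in 31.7% (25.5% to 38.5%) and 48.5% (38.6% to 58.6%) in that order. By this measure the intervals overlapped on the plus strand and all but touched on the minus strand. Among all windows of the table with that length it stood in 41.9%, and GGACT in 11.6%. The wider DRACH context, which overlaps GGAC wherever GGAC is followed by A, C or T, was present in most windows of both kinds. It stood in 85.2% of IP-poor and 85.8% of IP-rich windows on the plus strand, in 88.9% and 85.4% on the minus strand and in 84.2% of all windows. The intervals of IP-poor and IP-rich windows overlapped for DRACH on both strands.

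Base composition moved with these densities. Median GC content was 49.2% (48.5% to 50%) in IP-poor and 56.7% (55% to 58.9%) in IP-rich windows wholly in the 3' UTR on the plus strand. The minus-strand medians were 48.1% (46.8% to 49.7%) in IP-poor and 58.2% (55.6% to 60.0%) in IP-rich windows, and the unlisted pieces had 44.0% on the plus strand and 45% on the minus strand. Among windows of the class with 45% to 55% GC, GGAC stood at 0.355 per 100 nt (0.323 to 0.39) in IP-poor and 0.476 (0.37 to 0.604) in IP-rich windows on the plus strand. On the minus strand it stood at 0.413 (0.361 to 0.471) in IP-poor and 0.519 (0.414 to 0.643) in IP-rich windows, so within this GC range the intervals overlapped on both strands. At 55% GC or more they did not: the densities were 0.454 (0.405 to 0.508) in IP-poor and 0.603 (0.522 to 0.694) in IP-rich windows on the plus strand, and 0.529 (0.449 to 0.619) and 0.784 (0.716 to 0.856) in that order on the minus strand. Counted by the central 100 nt, the plus-strand intervals overlapped in this range, at 37.6% (31.3% to 44.3%) and 47.3% (38.5% to 56.2%). The minus-strand ones, 40.4% (30.9% to 50.5%) and 60.1% (53.0% to 66.9%), did not. This range has no upper limit, and GC content within it was not matched. Below 45% GC the IP-rich windows were 14 and 17 in number and held 5 and 14 motifs, too few to compare.

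The AU-rich pentamer ATTTA, the core of elements that shorten mRNA half-life, was counted in the same way. It occurred 0.0822 times per 100 nt (0.0701 to 0.0958) in IP-poor and 0.0455 times (0.0249 to 0.0763) in IP-rich windows wholly in the 3' UTR on the plus strand. In minus-strand genes it occurred 0.117 times (0.0903 to 0.15) in IP-poor and 0.0618 times (0.0353 to 0.1) in IP-rich windows. Unlisted pieces had 0.17 on the plus strand and 0.173 on the minus strand, above both kinds of window. The intervals of IP-poor and IP-rich windows overlapped on both strands. Among windows of the class with 45% to 55% GC the densities were 0.0679 (0.0541 to 0.0842) in IP-poor and 0.07 (0.0336 to 0.129) in IP-rich windows on the plus strand. For minus-strand genes in that GC range they were 0.0704 (0.0498 to 0.0967) in IP-poor and 0.0989 (0.0565 to 0.161) in IP-rich windows, so the lower density of IP-rich windows was not seen there. ATTTA stood in the central 100 nt of 3.67% of all windows of the table. AATAAA stood there in 1.61% of all windows, in 2.71% of IP-poor windows on the plus strand and 1.44% on the minus strand.

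**Figure D3:**
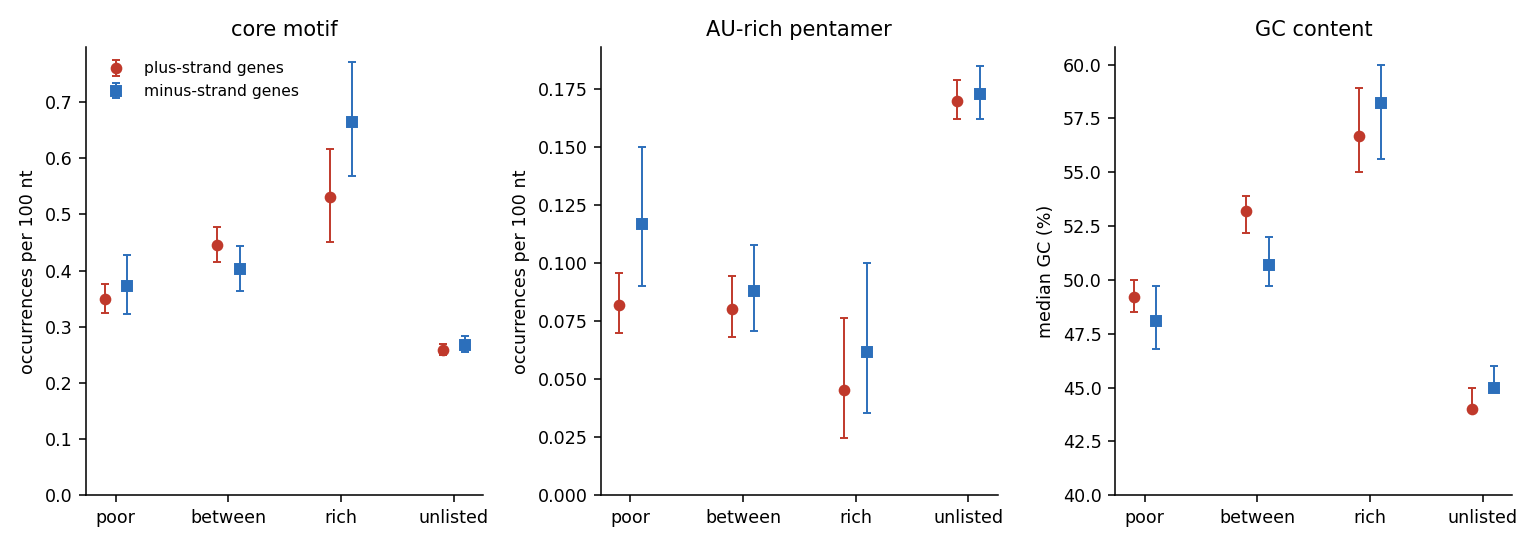
Occurrences of the core motif and of the AU-rich pentamer per 100 nt, and median GC content (axis from 40%). Values are for IP-poor, intermediate and IP-rich windows wholly in the 3' UTR, and for unlisted pieces. The unlisted pieces come only from 3' UTRs that hold the midpoint of an IP-poor window. Red circles are plus-strand and blue squares minus-strand genes, and bars are exact 95% intervals. Core motif density and GC content were lower in IP-poor than in IP-rich windows on both strands, and both were lowest in the unlisted pieces.

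Genes were also compared by whether they held an IP-rich window anywhere. On the plus strand 319 of 569 genes with an IP-poor 3' UTR window (56.1%, 51.9% to 60.2%) also had an IP-rich window, against 57.8% of genes with other windows of the class alone and 51.4% of all plus-strand genes in the table. An IP-rich window of the 5' UTR class was held by 210 of the 569 (36.9%), against 26.1% of genes with other windows of the 3' UTR class alone and 35.4% of all plus-strand genes. One of the 3' UTR class was held by 34 (5.98%), against 24.5% and 4.18% in that order. Genes with other windows of the class alone are by choice those in which no window of the class was IP-poor. That choice raises their share with an IP-rich window of the class on both strands, so this contrast describes the choice. Among minus-strand genes 66 of 330 (20%, 15.8% to 24.7%) had an IP-rich window, against 38.2% (34.7% to 41.9%) of genes with other windows of the class alone and 32.0% of all minus-strand genes. In that order, 9.39%, 29.4% and 8.2% held one of the 3' UTR class, where the choice acts. One of the coding class was held by 10.3%, 13.0% and 19.8%, and one of the 5' UTR class by 1.52%, 4.43% and 6.78%. Plus-strand genes with an IP-poor window had a median of 7 listed windows, against 3 in the other plus-strand genes with a window of the class, and more windows give more chances of an IP-rich one. In minus-strand genes both medians were 3.

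Where a gene had at least 3 listed windows outside the class, its most deeply covered IP-poor 3' UTR window was compared with those windows pooled. Over 438 plus-strand genes the median ratio was 0.096 in the IP-poor window and 0.906 in the pooled other windows, and the pooled ratio was above 1 in 197 genes. Over 92 minus-strand genes it was 0.108 in the IP-poor window and 0.391 in the pooled other windows, with the pooled ratio above 1 in 23 genes. The pooled other windows were themselves at or below 0.25 in 57 plus-strand genes (13%) and 29 minus-strand genes (31.5%). Of all genes with at least 3 windows outside the class, 12.8% of plus-strand and 21.0% of minus-strand genes had a pooled ratio that low. Their share with a pooled ratio above 1 was not computed, so the counts of 197 and 23 genes have no background. The first value of each pair of medians is fixed by the choice of windows.

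In plus-strand genes the window over the stop codon is mostly of the coding class, and only stop codon windows outside the 3' UTR class, whose reads the choice did not use, were taken for the comparison on that strand. Of 455 plus-strand genes with an IP-poor window wholly in the 3' UTR, 223 had such a stop codon window, and its median ratio was 0.444 (0.353 to 0.767). In 114 genes with other 3' UTR windows and no IP-poor window of the class it was 1.98 (1.17 to 3.17), and over all 1097 genes with such a window 0.614 (0.532 to 0.706). IP reads outnumbered input reads over the stop codon in 81 of the 223 genes (36.3%), in 62.3% of the 114 and in 39.4% of all 1097. The share of the 223 was thus near that of all genes. The stop codon window was itself IP-poor in 35% of the 223 genes, against 15.8% of the 114 and 31.1% of all plus-strand genes with such a window. With stop codon windows of the 3' UTR class included, these shares were 35.5%, 15.7% and 31.3%. In minus-strand genes only 10 of 499 stop codon windows were outside the 3' UTR class, and the others could themselves be chosen, so the values only describe the choice. There the median was 0.464 (0.163 to 1.08) in 32 genes and 1.53 (0.771 to 2.88) in 44, and 13 of the 32 stop codon windows (40.6%) were IP-poor, against 0 of the 44, most of which could not be by that choice, and 21.2% of all minus-strand genes. Median input over the plus-strand stop codon windows was 129 reads in the 223 genes and 47 in the 114, and the part of this depth difference in the ratios was not tested.

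CCND1 showed the widest contrast among the genes drawn in the plot of ratios along the transcript, which were chosen after their values were seen. Its window over the stop codon had 10968 IP and 1624 input reads, while its 2 IP-poor windows, centred 950 and 1985 nt downstream, had 5 IP and 737 input reads and 20 IP and 646 input reads. Together the 2 windows had a ratio of 0.0181, against 5.38 for the other 5 windows of the gene. AXL was high at its 5' end, with 9686 IP and 568 input reads in its first window. Its stop codon window, classed as coding, already had a low ratio (186 IP and 1946 input reads, 0.0956), and its 2 IP-poor windows together had 24 IP and 2959 input reads (0.00811). In CD44 the 2 IP-poor windows together had 13 IP and 1986 input reads (0.00655) and the other 9 windows a ratio of 0.351. A low ratio was not particular to its 3' UTR: a coding window of CD44 had 7 IP and 1186 input reads (0.0059).

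EGFR, the epidermal growth factor receptor, held 5 IP-poor windows between 2000 and 4635 nt after the stop codon. They had 8 IP and 252 input reads, 5 and 232, 7 and 458, 55 and 585, and 5 and 254, in order along the RNA. A further 3' UTR window between them, centred 3440 nt after the stop codon, had 169 IP and 480 input reads (0.352, 0.294 to 0.42) and was not IP-poor. WASF2, an activator of actin branching, was the minus-strand gene with most IP-poor windows, 6 between 623 and 2113 nt after the stop codon, with 84 IP and 1267 input reads in all (0.0663). FSTL1, a secreted glycoprotein, had 4, with 97 IP and 2550 input reads in all (0.038), against 0.337 in its other 10 windows. The first of the 4 also held the stop codon. Low ratios were not particular to these 3' UTRs: 9 of 14 coding windows of EGFR were IP-poor, with a lowest ratio of 0.0103, as were 2 of 3 coding windows of WASF2, with a lowest ratio of 0.0725, and 5 of 9 of FSTL1, with a lowest ratio of 0.0261.

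**Figure D4:**
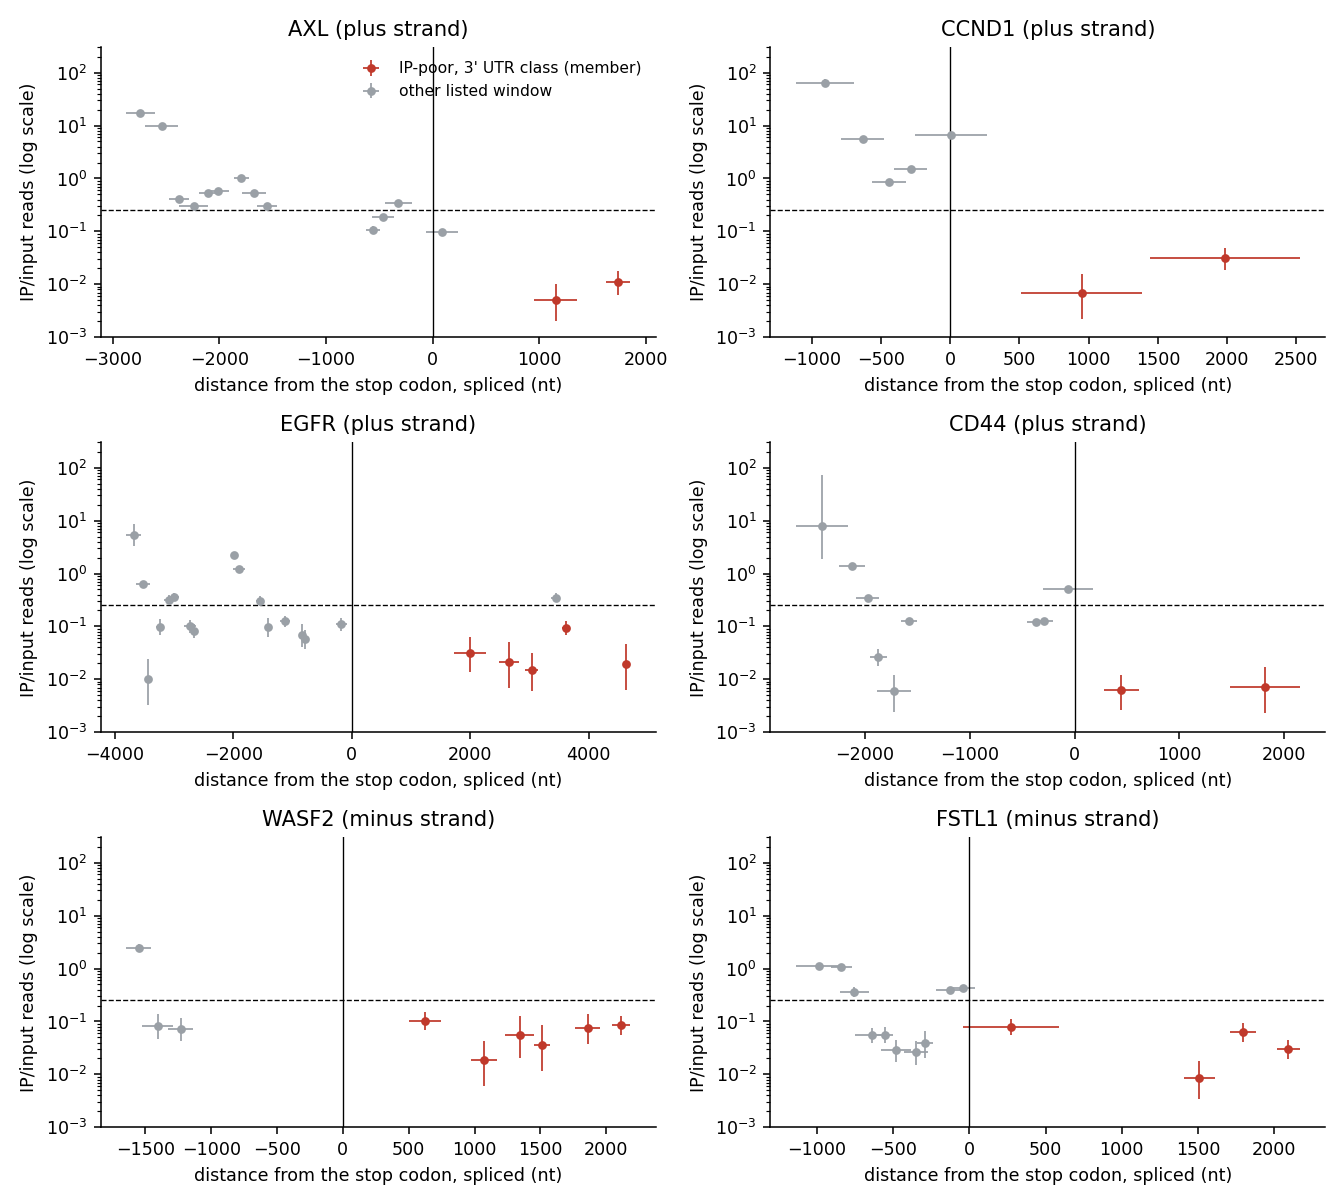
IP-to-input read ratio (log scale) of every listed window of 6 genes that has a place on the protein-coding transcript, against the distance of its midpoint from the stop codon in spliced nt; vertical bars are exact 95% intervals and horizontal bars the width of the window. Red points are IP-poor windows of the 3' UTR class, grey points all other listed windows, and the dashed line marks a ratio of 0.25; AXL, CCND1 and CD44 have ratios above 1 towards the 5' end, and their red points in the 3' UTR lie between 0.00495 and 0.031.

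Genes with both an IP-poor and an IP-rich window of the 3' UTR class numbered 34 on the plus strand and 31 on the minus strand; in 33 and 23 of them, in that order, an IP-rich window with at least 20 IP reads stood apart from the deepest IP-poor one. In the 34 and 31 genes GGAC stood at 0.449 per 100 nt (0.345 to 0.574) in IP-poor and 0.56 (0.425 to 0.724) in IP-rich windows on the plus strand, and at 0.522 (0.401 to 0.667) and 0.507 (0.388 to 0.651) in that order on the minus strand. The intervals overlapped on both strands. TBC1D24, a vesicle trafficking protein, had 5 IP and 20 input reads in a 3' UTR window centred 1233 nt after the stop codon and 382 IP and 25 input reads in another centred 1828 nt after it. STK24, a Ste20-like kinase of the minus strand, had 13 IP and 180 input reads in a window over its stop codon and 141 IP and 6 input reads in a window outside the exons of the main transcript. In DDX11, PHLDB1, ARHGAP22 and ZNF142 the IP-rich window lay in coding sequence of the main transcript and was classed as 3' UTR through a nonsense-mediated decay isoform.

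Among the genes that write, erase and read m6A, 5 had a window of the 3' UTR class and all 5 held an IP-poor one, against 40.5% of all genes with such a window (48.8% on the plus strand and 31.4% on the minus strand). The demethylase ALKBH5 had 6 IP and 164 input reads and 5 IP and 225 input reads in its 2 IP-poor windows, while its stop codon window had 917 IP and 410 input reads (2.24). RBM15B, an adaptor of the methyltransferase complex, had 5 IP reads in each of its 2 windows, with 21 and 25 input reads. METTL16, which methylates U6 and MAT2A RNA, had 7 IP and 45 input reads. The reader ELAVL1 (HuR), which binds AU-rich 3' UTRs, had 5 IP and 277 input reads and 18 IP and 234 input reads. RBMX had 3 windows with between 5 and 21 IP reads, all with their midpoints in coding sequence of the main transcript. With 5 genes in all, and with RBM15B near the limit of depth, these counts describe single genes.

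Over all genes with a window of the class, 40.5% held an IP-poor one, 48.8% on the plus strand and 31.4% on the minus strand, and counts in lists of genes are read against these shares. The lists are short, and their 95% intervals include 40.5% in all but those of ribosomal proteins and of the matrix (75%, 42.8% to 94.5% each). Both of these intervals include the plus-strand share of 48.8%. On that strand lie 10 of the 12 matrix genes and 7 of the 12 ribosomal ones, so neither list stands clear of its strand mix. The median window of the class had a ratio of 0.474 and 52 input reads over all genes. All 4 housekeeping genes with a window of the class (PGK1, PPIA, TFRC and YWHAZ) held an IP-poor one, 2 on each strand, with a median ratio of 0.0169 and 650 input reads over the list's windows. TFRC, the transferrin receptor, had 5 IP and 650 input reads, 7 IP and 569 input reads, and 52 IP and 576 input reads in its 3 windows. Of 12 genes in the list of cytosolic ribosomal proteins 9 held one (median ratio 0.15, 261 input reads), 5 of 7 on the plus strand and 4 of 5 on the minus strand. The 9 include RPL7L1, an RPL7-like gene that is not itself a ribosomal protein gene, and the share and interval without it were not computed. The matrix, integrins and proteases had 9 of 12 genes (0.158, 306 input reads), 7 of 10 in plus-strand and 2 of 2 in minus-strand genes. Of 6 genes of glycolysis and hypoxia, all on the plus strand, 5 held one (0.0618, 115 input reads). TIMP3, a metalloproteinase inhibitor of the matrix list, held 5, with between 5 and 12 IP and between 137 and 496 input reads. Because a window needs 20 input reads to be IP-poor and 5 IP reads to be listed, input depth moves with these counts, and its part was not tested.

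Short-lived regulators held an IP-poor window in 5 of 7 genes (median ratio 0.034, 280.5 input reads), 2 of 3 in plus-strand and 3 of 4 in minus-strand genes. Beside CCND1 these were MCL1, an antiapoptotic protein, with 7 IP and 508 input reads and 51 IP and 535 input reads, DUSP4, a MAP kinase phosphatase, KLF6 and FOSL2. Membrane traffic genes did so in 5 of 7, chromatin regulators in 5 of 8, cell cycle genes in 6 of 10, translation factors in 4 of 7, nuclear genes of the respiratory chain in 4 of 7, chaperones and proteasome in 4 of 8, cytoskeleton in 3 of 4 and splicing and RNA-binding proteins in 3 of 3. Of all genes with a window of the class 40.5% did (48.8% on the plus strand and 31.4% on the minus strand). The interval of each of these lists includes 40.5%. Taken by strand, membrane traffic had 3 of 3 in plus-strand and 2 of 4 in minus-strand genes, and cell cycle 5 of 6 and 1 of 4 in that order. Chromatin had 5 of 7 and 0 of 1, translation factors and the respiratory chain 3 of 4 and 1 of 3 each, and chaperones and proteasome 2 of 4 on each strand. All 4 cytoskeletal genes were plus-strand genes, and splicing and RNA-binding proteins had 2 of 2 and 1 of 1. The lowest shares among the lists with at least 4 such genes were in zinc finger genes, with 20 of 67 (29.9%, 19.3% to 42.3%), and solute carriers, with 9 of 34 (26.5%, 12.9% to 44.4%). Their windows were shallower or less poor, with median ratios of 0.682 and 0.526 and with 29 and 48 input reads. By strand, 18 of 41 zinc finger genes held one in plus-strand and 2 of 26 in minus-strand genes, and 6 of 13 and 3 of 21 solute carriers did in that order. Of the 2 metastasis genes of the study's list with a window of the class, EGFR held IP-poor windows and VEGFA held none. TFRC, PGK1 and CCND1 stand in more than 1 list.

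**Figure D5:**
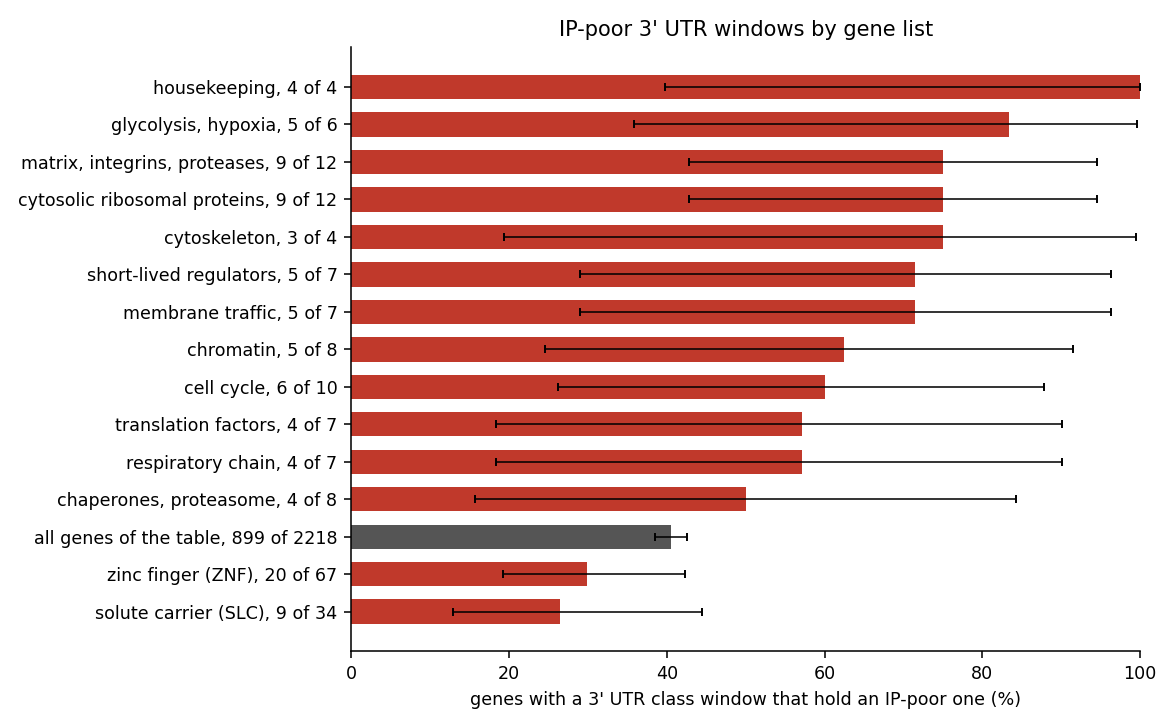
Share of genes with a window of the 3' UTR class that hold an IP-poor one (%, exact 95% intervals, both strands pooled), for gene lists with at least 4 such genes and, in dark grey, all genes of the table. The lists lie above the 40.5% of all genes, except the zinc finger and solute carrier genes, which lie below it, and most intervals include it. The share of all genes was 48.8% on the plus strand and 31.4% on the minus strand. The lists differ in their strand mix, which the pooled shares do not take into account.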

How the data were processed

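The deposited table gave, per window, gene, coordinates, strand, region class, IP and input read counts, and the authors' p-value, FDR and score, per the file headers. Counts were whole numbers with 1 column each for IP and input, taken as the authors' pooled counts of 2 IP and 2 input libraries. The submitters' processing notes name HISAT2, HOMER and GRCh38 (hg38), without versions; the window caller, library totals and pooling are not given in the sources used here. The authors' p-values and FDR were described and used as a filter, and no other result rests on them. The deposited score, at least 1 throughout, was not used.

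Of 27855 entries 177 repeats were dropped. Windows were placed on GENCODE release 29 transcripts with Python 3.11.15, pandas 2.3.3, numpy 2.4.6 and scipy 1.17.1. In 95.4% of windows both ends fell on a 10 nt grid counted from the genome-left end of 1 spliced transcript per gene, and 98.1% were placed. This replaces placement on the longest coding transcript, which put windows of genes cut on other isoforms in the wrong place. Places were then read on the protein-coding transcript with the longest coding sequence. IP-poor means 4 times IP at most input, and IP-rich means IP at least 4 times input, without scaling to library totals. Shares have Clopper-Pearson, densities Poisson and medians order-statistic intervals. The interval of the IP-to-input ratio was tested on simulated data, and those of shares, densities and medians were not.

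Windows, lists and plotted genes were chosen with earlier results of these data known. Named genes were, per strand, the 8 with most input reads, the 4 with the lowest upper bounds, the 4 with most windows, the 6 best pairs of IP-poor and IP-rich windows, members of the m6A and metastasis lists, and the 2 windows on each side of the threshold. Alternatives are given in the closing section.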

Additional observations from a re-analysis of the deposited data

How the results depend on the processing

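No paired analysis was possible because the table holds 1 pooled column of IP and 1 of input reads, and the replicate numbers of the labels cannot be used. Of 106 values under 9 alternatives, 85 kept within 1.5 times the reported count or inside the reported interval and 21 moved. Requiring 8 input reads per IP read left 522 plus-strand and 271 minus-strand windows, and requiring the upper bound of the ratio to be at most 0.25 left 506 and 295. Under these 2 settings median GC content was 47.4% and 47.3% on the plus strand and 47.4% on the minus strand. With at least 50 input reads it was 48.3% on the plus strand and 47.9% on the minus strand. The share of genes with an IP-rich window was 51.0% on the plus strand under the upper bound, and on the minus strand 15.3% under the 8-fold rule and the upper bound and 15.4% with at least 50 input reads. With the midpoint in the 3' UTR in place of the class, 265 minus-strand windows remained, and the stop codon share was 18.6% on the plus strand and 21.1% on the minus strand. The midpoint rule admits plus-strand windows over the stop codon that the class column calls coding. Reducing overlapping windows to 1 gave a 3' UTR midpoint share of 80.9% on the plus strand. Using only windows cut on protein-coding transcripts, an alternative chosen after seeing the data, gave 87.4% on the plus strand and 65.4% on the minus strand, and a plus-strand stop codon share of 1.19%. GGAC density stayed inside its interval under all 9. The density and GC content varied here are those of all IP-poor windows of the class (GGAC 0.363 per 100 nt on the plus strand and 0.4 on the minus strand, GC 49.4% and 48.8%), not of windows wholly in the 3' UTR, and their contrast with IP-rich windows was not recomputed. The midpoint share was not recomputed where the midpoint itself chose the windows.

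Depth limits single windows: 35.2% of plus-strand and 17.8% of minus-strand windows sit at 5 IP reads, the lowest number listed, and windows with fewer were not analysed here. Without replicate columns, variation between libraries is unknown.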

Other observations

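Further contrasts between a stop codon window and an IP-poor window wholly in the 3' UTR of the same gene were seen in genes outside the naming rule, chosen after their values were seen. BASP1, a membrane-bound growth protein, had 9081 IP and 515 input reads over its stop codon (ratio 17.6) and 5 IP and 316 input reads in a window 391 nt downstream (0.0158). SKI, a corepressor of TGF-beta signalling, had 377 IP and 39 input reads over the stop codon (9.67) and 5 IP and 94 input reads 2271 nt downstream (0.0532). CDR2L had 666 IP and 31 input reads (21.5) and 6 IP and 36 input reads (0.167), the second 1260 nt downstream. The pattern of these 3 genes was not tested as a group.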
